A study of Mus musculus with 12 samples.

Results

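The livers of mice lacking apolipoprotein E were compared with the livers of mice that carry it, across both states of Dscr-1. Of the 12 arrays of the series, 8 are liver arrays, and they were split by the ApoE genotype in their labels into 4 that lack ApoE and 4 in which it is intact. The ApoE lacking side held the ApoE null mice and the mice null for both ApoE and Dscr-1 (double null), and the ApoE intact side held the WT mice and the Dscr-1 null mice, with 2 mice and 1 array each for each of the 4 genotypes. Dscr-1 (down syndrome critical region 1) is the product of the gene Rcan1 and was lacking on 2 arrays of each side, so it was a covariate of the comparison and not part of it. All 8 mice were adult C57BL/6J mice, the WT mice were purchased, and the Dscr-1 null and ApoE null lines came from earlier work on the same background, so line of origin and genotype cannot be told apart where the mice were not littermates. The labels give every liver group a high-fat diet (HFD) and a course of 12 weeks, whereas the study's text describes the arrays as taken on normal chow, so the diet is given here as labelled and was the same on both sides.

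Apolipoprotein E is made mainly by hepatocytes and macrophages and sits on very-low-density lipoproteins, chylomicron remnants and high-density lipoproteins. It is the ligand through which receptors of the liver clear remnant particles, and mice without it accumulate remnants in plasma and develop atherosclerosis. Within the liver, hepatocytes carry out lipoprotein assembly, bile acid synthesis and fatty acid metabolism, while Kupffer cells, the resident macrophages of the sinusoids, take up particles and debris.

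The unit of every value is the MAS5 signal, the brightness of a probe set after each array's average had been set to 100 by the authors. Differences are given as ApoE lacking minus ApoE intact on the log2(signal + 16) scale, which understates the change of dim genes. Each gene was read on its brightest probe set, and 14758 genes that exceeded the array's median on at least 2 arrays were tested. The array least like the others was ApoE null replicate 1, whose correlation with them averaged 0.835 against 0.873 to 0.883 elsewhere and whose median signal was 44.7 against 32.2 to 37.6. The ratio of the 3' to the 5' actin control was 4.01 to 7.84 on the ApoE lacking side and 3.15 to 5.50 on the ApoE intact side, and its part in the differences below was not tested. The number of arrays limits the precision. The study's methods describe the mice fed HFD as littermates. They do not say which of the mice on these arrays shared a litter, and p-values measure only the spread between these arrays.

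The targeted gene was read first. Apoe gave signals of 20045.3 and 19962.9 (WT), 21510.3 and 19937.4 (Dscr-1 null), 305.0 and 177.1 (ApoE null), and 83.7 and 79.8 (double null). Each ApoE lacking array lay far below each ApoE intact array, and the mean signal was 126-fold lower. The difference was -7.03 (SE 0.35, n = 4 on each side, limma adjusted p = 0.00031). Rcan1 gave 210.0 and 133.7 (WT), 255.2 and 353.1 (Dscr-1 null), 496.5 and 176.7 (ApoE null), and 491.5 and 209.5 (double null). The signal of Rcan1 was thus not lower on the arrays labelled as lacking Dscr-1, and the sources used here do not say where its probes lie relative to the deleted part, so it does not check the labels of the covariate. Its difference between the ApoE sides was 0.43 (SE 0.41, limma adjusted p = 0.93).

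Among the 14758 genes, Apoe was the only one with a limma adjusted p under 0.05, which made 1 lower gene (0.00678% of those tested) and 0 higher genes (0%). Without adjustment, limma gave p under 0.05 for 595 higher genes (4.03%) and 273 lower genes (1.85%). The count depended on the variance model, the offset and the filter. With a variance trend and robust estimation it was 86 higher and 35 lower genes, with an offset of 64 in place of 16 it was 24 and 3, and over the 6983 genes above the 75th percentile on at least 4 arrays, a filter chosen after seeing the data, it was 11 and 2. The 11 higher genes of that filter were Clec7a, Saa3, Lpl, Lgals3, Ly86, Lyz2, Vcam1, Lyz1, Cfp, Cd5l and Pltp, and the 2 lower genes were Apoe and Ppp5c. The limma adjusted p there was 0.00688 for Clec7a, 0.0115 for Saa3, 0.0198 for Lpl, 0.0413 for Lgals3, Ly86, Lyz2, Vcam1, Lyz1 and Ppp5c, and 0.0449 for Cfp, Cd5l and Pltp. A gene can meet that filter through the 4 arrays of 1 side alone. The filter is thus not independent of the comparison, and these p-values are given as a description and not as calls.

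Another view used no variance model and counted the genes whose 4 ApoE lacking arrays all lay above, or all below, the 4 ApoE intact arrays. There were 331 such genes above (2.24%) and 240 below (1.63%). With array medians set equal more such genes lay below than above, so the direction of this split depended on the scaling. A gene of this kind has the smallest p that an exact two-sided permutation test of 4 arrays against 4 can give, 0.0286, and in what follows genes are said to lie apart, higher or lower, in this sense only. Apart from Apoe none of the genes below passed the adjusted threshold in the fit over all 14758 genes, and their values are given as a description. In whole liver, fewer cells of a type and less RNA per cell cannot be told apart.

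Genes of macrophages were higher in the livers lacking ApoE. Of 29 tested markers of Kupffer cells and macrophages, 26 had a higher mean, the median difference was 0.81, and 14 lay apart, higher, whereas 0 lay apart, lower. Over all genes tested the median difference was 0.00437 and 2.24% lay apart, higher. Lgals3, the lectin galectin-3, gave 132.5 and 138.9 (WT), 131.2 and 95.1 (Dscr-1 null), 1044.2 and 387.8 (ApoE null), and 2008.3 and 1051.0 (double null). The sides did not overlap for Lgals3, its mean signal was 9.02-fold higher without ApoE, and the difference was 2.82 (SE 0.43, limma adjusted p = 0.42). Cd5l, a soluble scavenger protein secreted by tissue macrophages, gave 1113.9 and 2019.8 (WT), 1644.5 and 1744.8 (Dscr-1 null), 5413.3 and 3208.0 (ApoE null), and 7665.9 and 5471.1 (double null). Its difference was 1.69 (SE 0.31), and each ApoE lacking array exceeded each ApoE intact array. Lyz2, the lysozyme of macrophages, gave 268.7 to 333.1 with ApoE and 689.6 to 1557.0 without it, a difference of 1.66 (SE 0.29). Lyz1 was 2.20 higher (SE 0.36), but the lysozyme genes are close copies of each other and their probes may share signal.

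**Figure D1:**
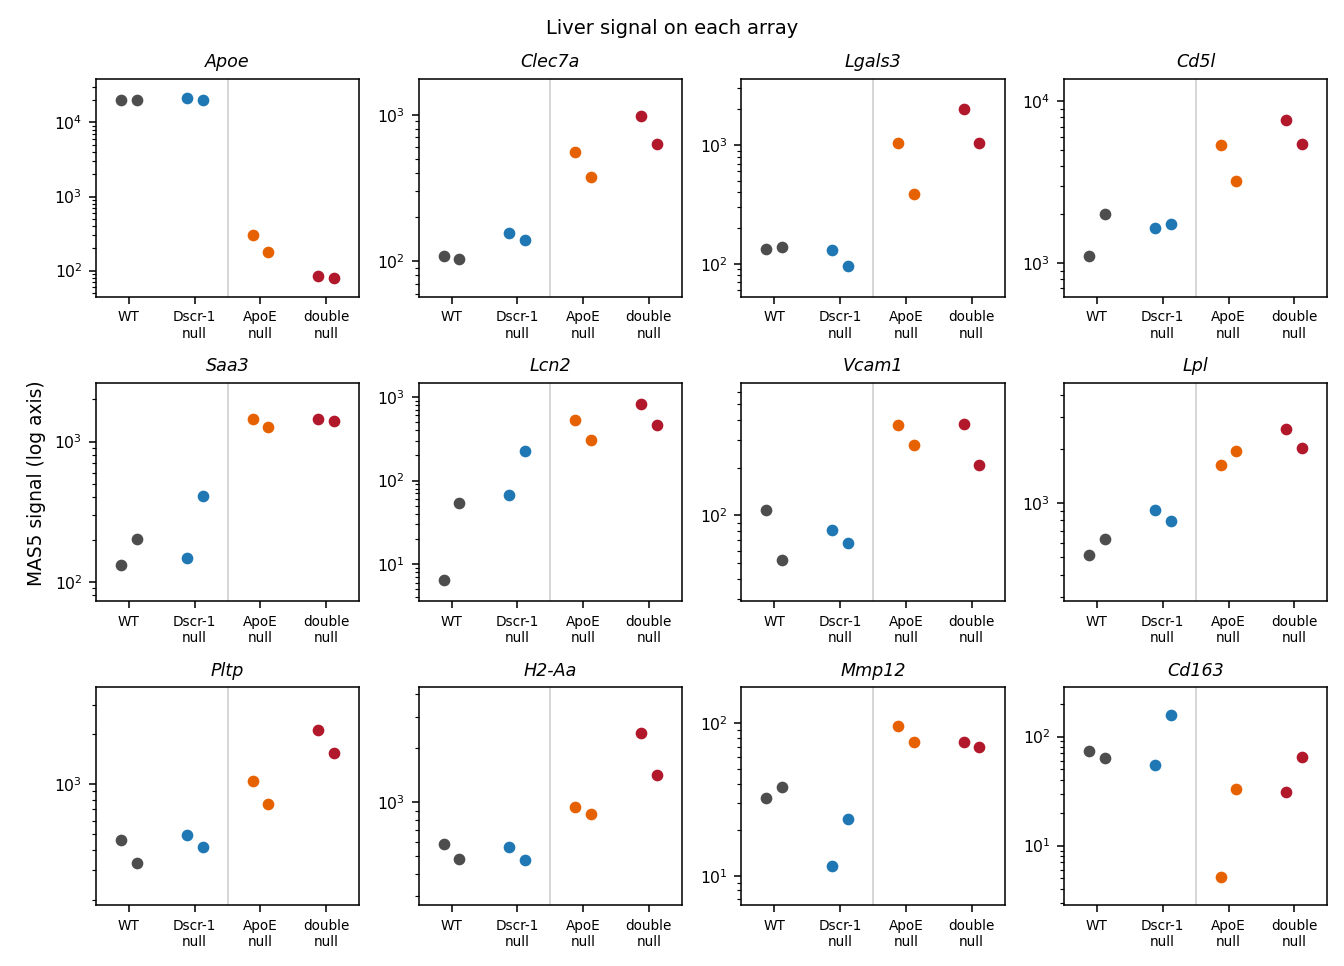
MAS5 signal (log axis) of 12 genes on each of the 8 liver arrays, grouped by genotype, with 1 point for each array and a grey line between the ApoE intact arrays on the left and the ApoE lacking arrays on the right. For all genes shown but Cd163 the sides do not overlap, with Apoe lower and the other 10 higher without ApoE.

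Other members of the list also lay apart, higher. Ly86, a partner of a Toll-like receptor relative, lay apart at 1.24 (SE 0.24), Cd68, a lysosomal glycoprotein of macrophages, at 1.38 (SE 0.35), and Marco, a scavenger receptor, at 1.70 (SE 0.44). The 3 chains of complement C1q, which macrophages make, lay apart together, with differences of 1.05 for C1qa, 1.21 for C1qb and 1.04 for C1qc. The other probe sets of C1qb gave 0.71 and 1.11 on sides that overlapped. Mpeg1, Fcer1g, Ctss, Aif1 and Fcgr1 also lay apart, at 0.95, 0.88, 0.71, 1.06 and 0.68. Among markers of resident Kupffer cells, Clec4f, Vsig4, Timd4 and Adgre1 had overlapping sides, whereas Cd5l and Marco, which Kupffer cells also express, lay apart. Clec1b, a lectin-like receptor of Kupffer cells and platelets that is in no list and was chosen after its values were seen, gave 104.0 to 297.3 with ApoE and 374.0 to 1095.0 without it. Its sides did not overlap and its difference was 1.51 (SE 0.38). Clec4f, a lectin particular to Kupffer cells, gave 458.5 to 859.8 with ApoE and 650.0 to 1062.9 without it, a difference of 0.43 (SE 0.30), and Vsig4, their complement receptor, gave 0.51 (SE 0.31). Timd4 and Adgre1, the gene of the F4/80 antigen, had differences of -0.05 (SE 0.49) and -0.06 (SE 0.29). Cd163, the haemoglobin scavenger receptor, went the other way in the list, with 54.7 to 156.6 with ApoE and 5.1 to 64.5 without it, a difference of -1.12 (SE 0.40) on sides that overlapped.

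The summed signal of all 30 macrophage markers on the array was 10913.7 to 13609.3 with ApoE and 16391.4 to 33201.0 without it, so that the sides did not overlap. The 18 markers of lipid-associated macrophages summed to 12015.6 to 20622.4 with ApoE and 20706.7 to 25592.0 without it, and the 13 neutrophil markers to 302.0 to 683.7 and 749.3 to 1566.9, also without overlap. The lipid-associated sums were nearly tied, however, between Dscr-1 null replicate 1 at 20622.4 and ApoE null replicate 1 at 20706.7. Of the neutrophil list only Lcn2, which hepatocytes also make, lay apart, and without Lcn2, a sum added after seeing the data, the other 12 markers gave 295.5 to 475.2 and 440.5 to 754.8, so that the sides overlapped. In that list S100a9, a calcium-binding protein abundant in neutrophils, gave 45.7 and 33.6 (WT), 9.4 and 7.5 (Dscr-1 null), 39.4 and 69.9 (ApoE null), and 172.4 and 102.9 (double null). Its difference was 0.32 in ApoE null over WT livers and 2.61 in double null over Dscr-1 null livers (interaction, limma adjusted p = 0.76). The sums of the 17 hepatocyte markers, 231765 to 261595 with ApoE and 242689 to 334925 without it, overlapped, as did those of T and NK cells, B and plasma cells, endothelium, stellate cells, cholangiocytes, erythroid cells, platelets, pancreatic acinar cells and adipocytes. The markers that define hepatocytes were bright on every array, with Alb between 27526.8 and 64005.7. The part of the number of macrophages in the differences was not tested. Without ApoE null replicate 1 the macrophage list had a median of 0.70 and 27 of 29 higher members, with 14 lying apart on the remaining arrays.

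Genes of lipid-loaded macrophages had all their 17 tested members higher on average, with a median of 0.72, and 7 of them lay apart, higher. Clec7a, the beta-glucan receptor dectin-1 and the gene with the lowest p after Apoe, gave 108.4 and 102.9 (WT), 154.7 and 138.7 (Dscr-1 null), 556.5 and 375.8 (ApoE null), and 975.7 and 628.4 (double null). Its mean was 5.03-fold higher without ApoE, and the difference was 2.13 (SE 0.27, limma adjusted p = 0.31). Capg, an actin-capping protein of macrophages, gave 2.3 to 27.5 with ApoE, under every array's median, and 51.8 to 210.4 without it. Mmp12, macrophage elastase, gave 11.5 to 37.9 and 70.2 to 95.5, a difference of 1.21 (SE 0.25). Gpnmb, a glycoprotein of lysosome-rich macrophages, had a difference of 2.28 (SE 0.61), but WT replicate 1 at 90.8 lay above ApoE null replicate 2 at 82.4, so the sides overlapped. Trem2, the lipid-sensing receptor that names these cells, was dim, with 9.0 to 33.0 and 18.5 to 68.8. The list shares 2 tested genes with the macrophage list and 5 with the lysosomal list.

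Lysosomal genes were higher in part. Of 24 tested, 18 had a higher mean, the median was 0.29, and 8 lay apart, higher, against 1 lower. Ctsd, a lysosomal protease, gave 989.2 to 1185.6 with ApoE and 1375.3 to 1861.0 without it, a difference of 0.66 (SE 0.24). Psap, the precursor of the saposins that help degrade sphingolipids, gave 1194.3 to 1689.2 and 2179.2 to 2595.2, and Hexa, the alpha chain of beta-hexosaminidase, 437.7 to 561.0 and 606.3 to 1107.8. The sides of these 3 genes did not overlap, but the other probe set of Psap gave 0.22 on sides that overlapped. The sides of Hexa overlapped with array medians set equal. Lgmn, the protease legumain, had a larger difference of 1.12 (SE 0.40), but double null replicate 2, at 199.6, lay within the range of the ApoE intact arrays.

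Antigen presentation by MHC class II, the pathway by which professional antigen-presenting cells show peptides to CD4+ T cells, was represented by 12 tested genes. All 12 had a higher mean without ApoE, with a median of 0.75, and 5 lay apart, higher. H2-Aa, a class II alpha chain, gave 480.4 to 587.8 with ApoE, 946.6 and 858.4 in ApoE null livers, and 2426.3 and 1420.3 in double null livers, a difference of 1.27 (SE 0.32). All 4 of its probe sets had a higher mean, by 1.27 to 1.72. Cd74, the invariant chain, was 1.07 higher (SE 0.37), H2-Ab1, a class II beta chain, 0.99 (SE 0.32) and Ifi30, the lysosomal thiol reductase, 0.79 (SE 0.27). In each of these 4 genes double null replicate 1 had the highest signal. The other probe sets of H2-Ab1 gave 1.05 and 0.62 on sides that overlapped, and its sides also overlapped with array medians set equal. The 14 tested genes of MHC class I and the immunoproteasome had a median of 0.09 and 2 that lay apart, higher, of which H2-K1, a classical class I heavy chain, was 0.40 higher, but with array medians set equal 0 of the 14 lay apart.

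Of 29 tested genes of the interferon response, 24 had a higher mean, with a median of 0.26, and 3 lay apart, higher. These were Gbp2, an interferon-inducible GTPase, at 1.32 (SE 0.35), Oas1a, an oligoadenylate synthetase, at 0.89 (SE 0.24), and Oasl2, its relative, at 1.16 (SE 0.35). The sides of Gbp2 overlapped under both other scalings. Oas1a gave 111.7 to 153.3 with ApoE and 212.0 to 274.2 without it. Irf1, an interferon-regulated transcription factor, gave 145.7 to 196.6 and 187.0 to 339.4, a difference of 0.55 (SE 0.27) on sides that overlapped. The study ties this factor to its commonly upregulated liver genes through promoter motifs. With the array medians set equal the list's median was 0.15 and 18 of 29 were higher, and that scaling put the median of all genes at -0.11.

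The promoters of the genes that lay apart were searched for 5 motifs in the 250 bases before the gene start, as RefSeq gives it on build GRCm38.p6, on both strands, for the 1 promoter listed first for each gene. Promoters were at hand for 250 of the 331 genes higher and 192 of the 240 genes lower on every ApoE lacking array, and for 11838 of all 14758 tested. The interferon response motif, GAAA followed by any 2 bases and GAAA, was held by 6.8% of promoters of the higher genes, 2.6% of those of the lower genes and 2.58% of those of all genes tested. The motif of the macrophage factor PU.1, GAGGAAGT, was held by 3.2%, 2.08% and 2.33%, and the AP-1 motif, TGACTCA, by 2.4%, 4.69% and 3.54%. For the NF-kappa B motif, GGGA followed by any 4 bases and CC, the shares were 23.2%, 24.5% and 21.8%, and for the NFAT core, GGAAA, which short length makes common and which the interferon motif can contain, 60.8%, 47.4% and 54.3%. A match is a string of letters and not evidence of binding. Zfp979, a dim gene that lay apart, higher, also holds the PU.1 motif and is not shown. The promoters of 5 other genes that lay apart, higher, are shown because they hold the interferon response motif (Saa3, Gbp2 and Oas1a) or the PU.1 motif (C1qc and Mmp12), with the matches in capitals.
Saa3, chr7:46715677-46715926, minus strand: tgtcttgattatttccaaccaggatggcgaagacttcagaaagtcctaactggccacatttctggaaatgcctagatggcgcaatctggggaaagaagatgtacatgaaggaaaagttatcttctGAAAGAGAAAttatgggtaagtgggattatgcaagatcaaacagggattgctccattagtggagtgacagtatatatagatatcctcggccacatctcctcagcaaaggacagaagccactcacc
Gbp2, chr3:142620413-142620662, plus strand: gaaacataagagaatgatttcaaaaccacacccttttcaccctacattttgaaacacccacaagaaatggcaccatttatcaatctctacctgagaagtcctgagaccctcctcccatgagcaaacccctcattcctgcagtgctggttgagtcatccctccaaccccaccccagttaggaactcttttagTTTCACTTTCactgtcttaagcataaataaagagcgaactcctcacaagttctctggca
Oas1a, chr5:120907526-120907775, minus strand: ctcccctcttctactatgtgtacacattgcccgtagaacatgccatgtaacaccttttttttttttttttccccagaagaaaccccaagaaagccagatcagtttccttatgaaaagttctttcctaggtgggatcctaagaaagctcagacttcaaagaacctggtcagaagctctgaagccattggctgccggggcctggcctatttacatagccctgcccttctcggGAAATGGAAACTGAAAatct
C1qc, chr4:136892915-136893164, minus strand: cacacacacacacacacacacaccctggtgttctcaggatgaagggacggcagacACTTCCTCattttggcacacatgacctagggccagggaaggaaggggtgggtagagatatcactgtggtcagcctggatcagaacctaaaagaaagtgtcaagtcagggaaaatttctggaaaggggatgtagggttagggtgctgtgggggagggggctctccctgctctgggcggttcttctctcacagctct
Mmp12, chr9:7344147-7344396, plus strand: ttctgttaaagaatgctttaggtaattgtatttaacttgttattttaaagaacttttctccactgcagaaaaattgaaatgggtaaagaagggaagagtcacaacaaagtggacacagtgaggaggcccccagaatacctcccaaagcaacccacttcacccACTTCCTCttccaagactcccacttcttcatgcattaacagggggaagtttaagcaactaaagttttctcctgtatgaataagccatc
In Gbp2, C1qc and Mmp12 the match was on the opposite strand and reads as the reverse complement of the motif. In Oas1a the capitals cover a pair of overlapping matches next to the gene start.

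Acute phase genes, which hepatocytes switch on in inflammation, were divided. Of 24 tested, 16 had a higher mean, but the median was only 0.07 and 3 lay apart, higher. Saa3, the serum amyloid A form that macrophages and other cells outside the hepatocyte also make, gave 131.3 and 203.1 (WT), 147.1 and 407.5 (Dscr-1 null), 1442.7 and 1275.1 (ApoE null), and 1452.1 and 1396.7 (double null). The 4 ApoE lacking arrays lay within 1275.1 to 1452.1, the mean was 6.26-fold higher, and the difference was 2.69 (SE 0.34, limma adjusted p = 0.31). Lcn2, the siderophore-binding protein lipocalin 2, gave 6.5 and 53.8 (WT), 66.9 and 228.5 (Dscr-1 null), 532.9 and 308.8 (ApoE null), and 812.1 and 458.8 (double null), a difference of 2.78 (SE 0.52). Socs3, a feedback inhibitor of cytokine signalling, was 0.82 higher (SE 0.29), but its other probe sets gave 0.69 and 0.48 on sides that overlapped. The liver forms Saa1 and Saa2 had differences of 1.27 and 1.74 on sides that overlapped. The fibrinogen chains Fga, Fgb and Fgg stood at 0.04, 0.04 and -0.12, C-reactive protein at -0.17 and hepcidin, Hamp, at -0.41.

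The 26 chemokines and chemokine receptors tested had a median of 0.37, with 19 higher and 2 lying apart, Cxcl1 and Cxcl9. Cxcl1, a neutrophil attractant, gave 262.6 to 383.1 with ApoE and 511.2 to 1068.6 without it, a difference of 1.22 (SE 0.30), and all 3 of its probe sets lay apart. Cxcl9, a T cell attractant induced by interferon, was 1.23 higher (SE 0.44). Its other probe set gave 1.06 on sides that overlapped, and the sides of Cxcl9 also overlapped with array medians set equal. Among 30 cytokine, inflammasome and adhesion genes the median was 0.17, and Vcam1, the endothelial adhesion molecule for monocytes and lymphocytes, alone lay apart. It gave 108.9 and 52.2 (WT), 80.7 and 67.5 (Dscr-1 null), 367.7 and 276.0 (ApoE null), and 376.8 and 206.2 (double null), a difference of 1.79 (SE 0.31). Another probe set of Vcam1 also lay apart at 1.08, and another stood at 0.05. The cytokines Il1b, Tnf and Il6 had differences of 0.34, 0.41 and -0.51 on sides that overlapped. Complement and coagulation genes, which hepatocytes make, had a median of -0.02 over 30 genes. Apart from the C1q chains, only Cfp, the gene of properdin, lay apart, with 40.9 to 84.0 with ApoE and 184.1 to 416.1 without it, and properdin is made by leukocytes.

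**Figure D2:**
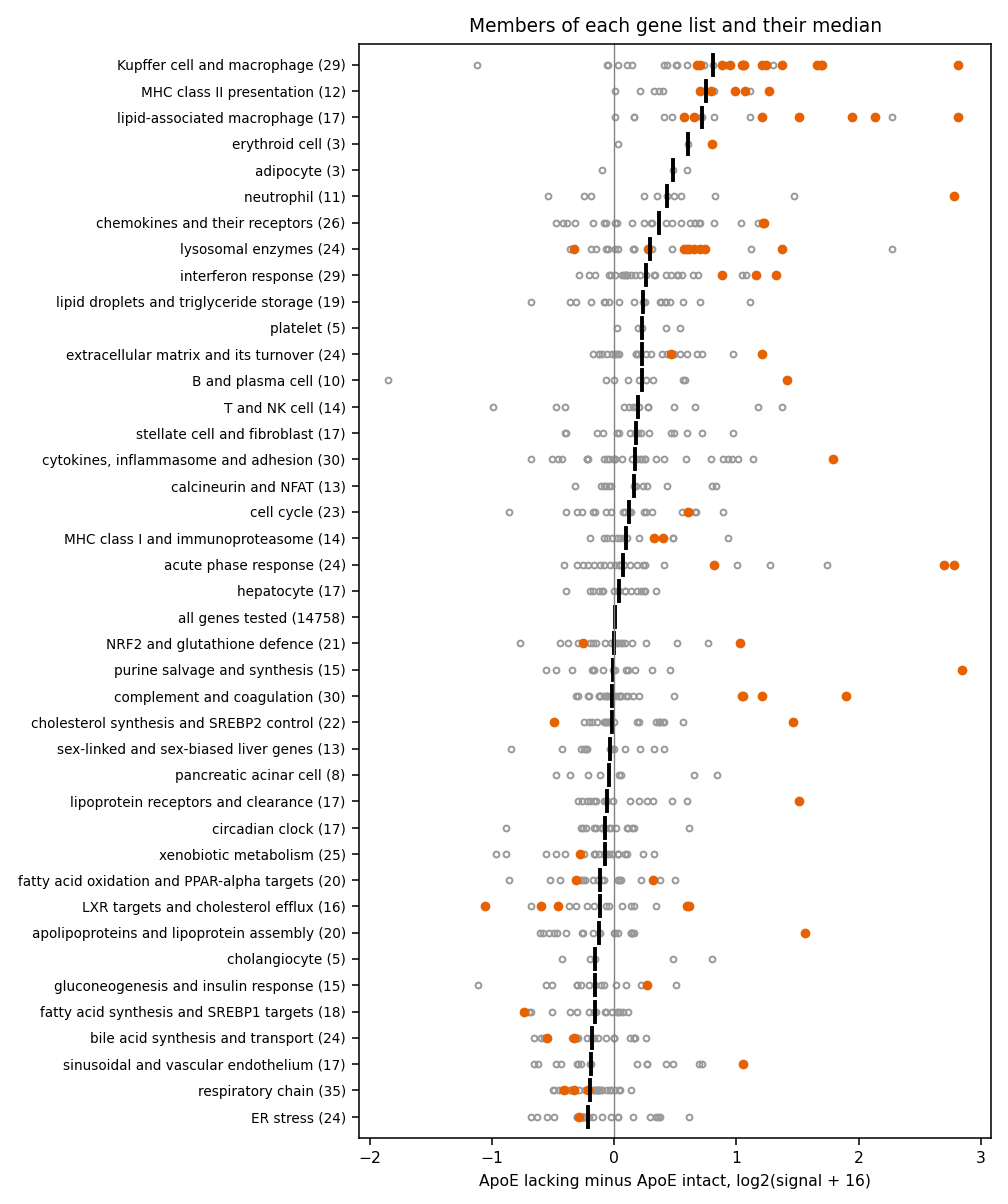
Difference between ApoE lacking and ApoE intact livers, on the log2(signal + 16) scale, for each tested member of the 40 gene lists, with the number tested in brackets and the black bar at the list's median. Filled orange points are genes whose sides do not overlap, open grey points those whose sides overlap. The macrophage, MHC class II and lipid-associated macrophage lists have the highest medians, 0.81, 0.75 and 0.72, and the row for all 14758 genes lies at 0.00437.

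Genes of lipoprotein handling were mostly without a difference, with a few exceptions. Lpl, the lipase that hydrolyses triglyceride in lipoproteins and that adult hepatocytes hardly make, gave 512.5 and 627.0 (WT), 917.9 and 797.7 (Dscr-1 null), 1625.2 and 1953.0 (ApoE null), and 2572.4 and 2008.6 (double null). The sides did not overlap, the mean was 2.86-fold higher, and the difference was 1.51 (SE 0.24, limma adjusted p = 0.42), with the other probe set at 1.45. Pltp, the phospholipid transfer protein that remodels high-density lipoproteins, gave 332.5 to 493.1 with ApoE, 1042.8 and 754.7 in ApoE null livers and 2120.8 and 1537.7 in double null livers, a difference of 1.56 (SE 0.29) with the other probe set at 1.23. Of 20 apolipoprotein and lipoprotein assembly genes other than Apoe, Pltp was the only one that lay apart, and the median was -0.12. The genes that lie in 1 cluster with Apoe, Apoc1, Apoc2 and Apoc4, stood at 0.14, 0.03 and -0.40. The 17 tested genes of lipoprotein receptors and clearance had a median of -0.06, with Lpl alone lying apart.

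Genes of cholesterol efflux and oxysterol sensing went in both directions. Abcg5 and Abcg8, whose products form the dimer that secretes cholesterol into bile, were both lower, with 1805.6 to 2782.3 against 1264.3 to 1713.5 for Abcg5 and 869.0 to 946.7 against 544.0 to 782.4 for Abcg8. The differences were -0.60 (SE 0.26) and -0.46 (SE 0.24), and neither pair of sides overlapped. Abcg1, which exports cholesterol from macrophages, lay apart in the other direction at 0.61 (SE 0.26), with its other probe set at 1.26, and Npc2, the lysosomal cholesterol carrier, at 0.59 (SE 0.27), while the other probe sets of Npc2 gave 0.27 and -0.04 and had overlapping sides. Ch25h, cholesterol 25-hydroxylase, gave 23.6 to 50.2 with ApoE and 2.5 to 22.9 without it, where every array was under its median, so the size of -1.06 is not read. Of the 22 tested genes of cholesterol synthesis and its control, 10 were higher, the median was -0.02 and 2 lay apart. The direction of that list depended on single arrays. Without ApoE null replicate 1, 18 of 22 were higher with a median of 0.18, without Dscr-1 null replicate 2 the median was 0.19, and without ApoE null replicate 2, 9 were higher with a median of -0.18 and 4 lay apart, lower. Sqle, squalene epoxidase, gave 4.8 to 49.8 with ApoE and 57.4 to 176.0 without it, a difference of 1.46 (SE 0.41), but its sides overlapped after quantile normalization and with array medians set equal. Insig2, which retains the sterol sensor in the endoplasmic reticulum, had a difference of -0.49 (SE 0.23). Srebf2, the gene of the master regulator SREBP2, gave 69.6 to 149.0 and 60.9 to 171.4, a difference of 0.19 (SE 0.34). Its other probe set gave 0.81 (SE 0.60), also on sides that overlapped.

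**Figure D3:**
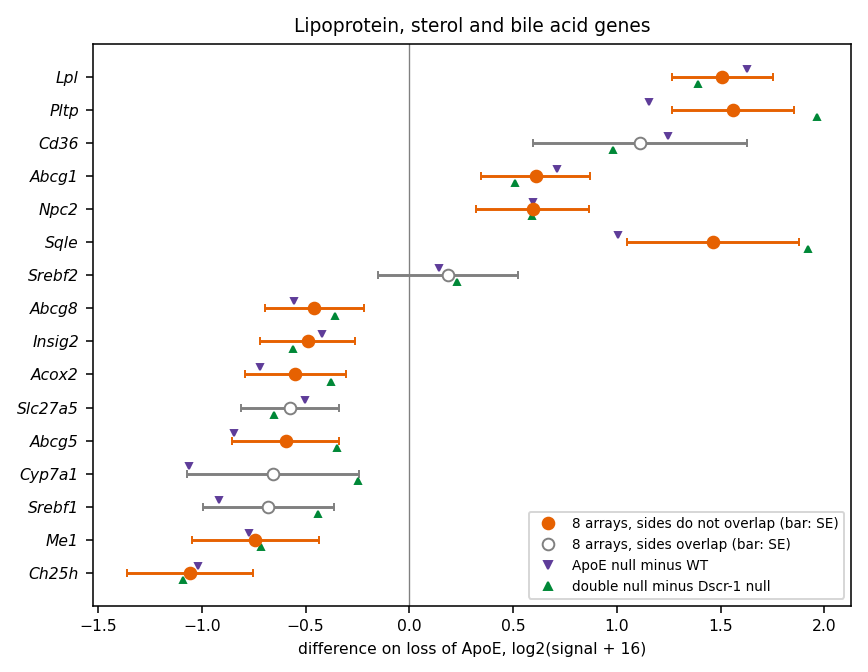
Difference on loss of ApoE for 16 lipid genes on the log2(signal + 16) scale. Circles with bars are the values over all 8 arrays with their SE, filled where the sides do not overlap, and the triangles are the differences of ApoE null from WT and of double null from Dscr-1 null livers. Lpl, Pltp and Sqle lie highest, at 1.51, 1.56 and 1.46, and for every gene shown both triangles lie on the same side of 0.

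In bile acid synthesis and transport, 19 of 24 tested genes had a lower mean, the median was -0.18, and 2 lay apart, lower. Bright genes as a whole also leaned lower. Of 6264 genes with a mean signal above 100, 41.5% were higher in ApoE null over WT livers. In double null over Dscr-1 null livers the share was 45.1%. Acox2, the peroxisomal oxidase that shortens the side chain of bile acid precursors, gave 1367.0 to 1990.8 with ApoE and 970.9 to 1306.4 without it, a difference of -0.55 (SE 0.24). With array medians set equal 0 of the 24 lay apart, Acox2 included. Slc27a5, the bile acid ligase, was lower by -0.58 (SE 0.24), but ApoE null replicate 2 at 5475.1 lay within the ApoE intact range. Cyp7a1, which catalyses the slowest step from cholesterol to bile acids, gave 1202.5 to 4304.8 and 1198.5 to 1727.2, a difference of -0.66 (SE 0.41). In fatty acid synthesis 13 of 18 tested genes were lower, with a median of -0.16. Me1, malic enzyme, which supplies reducing power for lipogenesis, gave 1281.3 to 2450.3 with ApoE and 547.7 to 1201.0 without it, a difference of -0.74 (SE 0.31), and both its probe sets lay apart, lower. Srebf1, the lipogenic transcription factor gene, was lower by -0.68 (SE 0.31) on sides that overlapped. That list's median was 0.03 without double null replicate 2. Cd36, a fatty acid and scavenger receptor, had a difference of 1.11 (SE 0.52) on sides that overlapped.

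Other functions of the hepatocyte differed little. Of 35 nuclear respiratory chain subunits, 31 had a lower mean and 3 lay apart, lower, with a median of -0.20 and no member beyond -0.50. Among all genes with a mean signal above 100, which leaned lower as a whole, 2.35% lay apart, lower. The 3 subunits lying apart were Ndufb5, Ndufb3 and Ndufs3 of complex I, at -0.41 (SE 0.24), -0.33 (SE 0.23) and -0.22 (SE 0.23). Atp5b, the beta subunit of ATP synthase, had a larger difference of -0.50 (SE 0.27), but ApoE null replicate 2, at 4246.3, lay within the ApoE intact range of 3711.0 to 5513.8. The median was -0.13 after quantile normalization and -0.32 with array medians set equal. The 24 genes of endoplasmic reticulum stress had a median of -0.22, with Hspa5, the chaperone BiP, lying apart at -0.29 (SE 0.23). That median was -0.08 without Dscr-1 null replicate 2 and -0.09 in ApoE null over WT livers. The other probe sets of Hspa5 gave -0.27 and 0.23 and had overlapping sides. Cyp2c29, a cytochrome P450 of drug metabolism, gave 6777.9 to 13903.4 with ApoE and 4220.2 to 8971.9 without it, a difference of -0.88 (SE 0.35), in a list of 25 with a median of -0.08. The 17 hepatocyte markers had a median of 0.04 and 0 that lay apart. Hmox1, heme oxygenase 1, was 1.03 higher (SE 0.32) and lay apart, while the 21 genes of glutathione and oxidant defence had a median of -0.0026. Col3a1, a fibrillar collagen, had a difference of 0.72 (SE 0.31) on overlapping sides, and Col1a1, another, was dim at 2.3 to 80.6.

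Each Dscr-1 genotype gives its own comparison of ApoE loss, and these share no array. Over the 6264 genes with a mean signal above 100, Apoe left out, the differences of ApoE null from WT and of double null from Dscr-1 null livers correlated with r = 0.28 and rho = 0.16 across genes, which are not independent replicates, and over all 14757 genes with r = 0.09. The genes highest in one comparison tended to be higher in the other. Of the 100 genes with the largest positive difference between ApoE null and WT livers, 76 were higher in double null than in Dscr-1 null livers, with a median there of 0.62. Of the 100 with the largest positive difference between double null and Dscr-1 null livers, 91 had a positive difference between ApoE null and WT livers, with a median of 0.76. Among all 6264 genes, 2597 had a positive difference between ApoE null and WT livers and 2824 between double null and Dscr-1 null livers. For the 100 largest negative differences the counts were 65 and 66, with medians of -0.17 and -0.15. These have a mostly negative background, since only 45.1% of the 6264 differences of double null from Dscr-1 null livers were positive. For ApoE null from WT livers the share was 41.5%. The medians of all 6264 were -0.03 and -0.06 in that order. The counts of 65 and 66 thus stood closer to their background than those of 76 and 91 did. The filter on mean signal used the arrays of both comparisons. It admits a dim gene more readily when the gene is higher in both comparisons, and less readily when it is lower in both. How far the filter shaped these counts and correlations was not tested.

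**Figure D4:**
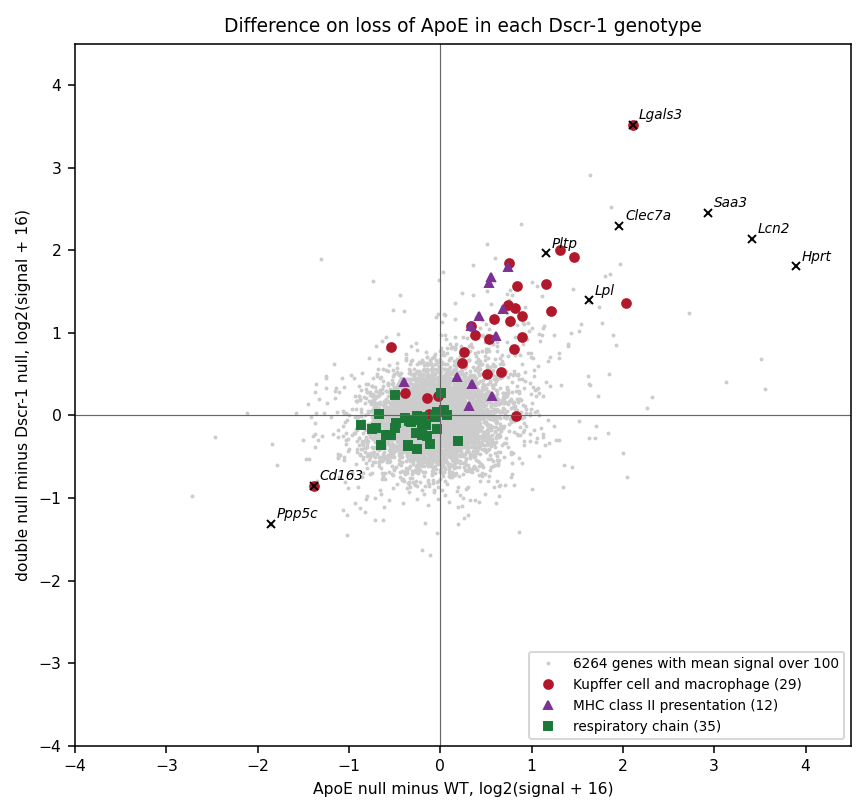
Difference of ApoE null from WT livers (horizontal) against the difference of double null from Dscr-1 null livers (vertical), both on the log2(signal + 16) scale, for 6264 genes with a mean signal above 100 and for all tested members of 3 lists. Apoe is not drawn and 2 genes lie outside the axes. Most macrophage and MHC class II genes lie in the upper right, 22 of 29 and 11 of 12, and most respiratory chain genes in the lower left, 28 of 35.

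The macrophage list had a median of 0.75 in ApoE null over WT livers, with 23 of 29 higher, and 0.98 in double null over Dscr-1 null livers, with 27 of 29 higher. For MHC class II the medians were 0.48 and 1.02, and for lipid-associated macrophages 0.83 and 0.95. Lgals3 differed by 2.11 and 3.52, Saa3 by 2.93 and 2.45, Clec7a by 1.96 and 2.30, and Lpl by 1.62 and 1.39, each with the same sign in both. Sterol synthesis had 17 of 22 genes higher in ApoE null over WT livers, with a median of 0.22, and 8 of 22 in double null over Dscr-1 null livers, with a median of -0.05. Whether any gene's difference depended on Dscr-1 was tested by the interaction, which had a limma adjusted p under 0.05 for 0 genes (0%) and an unadjusted p under 0.05 for 634 (4.30%). The medians of lists were not tested for such a difference.

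Some large differences came with signals that were far apart within the ApoE intact side. Ang, the ribonuclease angiogenin, had the largest positive difference of all, 4.01 (SE 1.18), but its sides overlapped. It gave 82.7 and 93.3 (WT), 8448.9 and 22375.2 (Dscr-1 null), 14582.4 and 20313.8 (ApoE null), and 20982.3 and 22270.3 (double null). The low signals were those of the WT mice alone, and the other probe sets of Ang gave 1.95 and 0.10. Hprt, the purine salvage enzyme, lay apart at 2.85 (SE 0.70), with 46.9 and 54.8 (WT), 819.7 and 65.9 (Dscr-1 null), 1018.7 and 933.3 (ApoE null), and 884.2 and 912.6 (double null). Dscr-1 null replicate 1 was close to the ApoE lacking arrays, and without it Hprt had a difference of 3.73 with a limma adjusted p of 0.0138, the only higher gene called on those 7 arrays. With any 1 array left out the difference of Hprt was 2.39 to 3.73. Both genes differed more in ApoE null over WT than in double null over Dscr-1 null livers, by 7.37 against 0.65 for Ang and 3.89 against 1.81 for Hprt.

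The genes beside Apoe on chromosome 7 were read by their order along it, a property not used to choose any gene. Among the 50 tested genes nearest to Apoe on each side, 8 lay apart (8%), against 3.86% of all genes other than Apoe, and 0 passed the adjusted threshold. On the side of lower coordinates 7 of the nearest 50 and 5 of the next 50 lay apart. On the side of higher coordinates it was 1 of the nearest 50, 2 of the next 50 and 5 of the 50 after those, and the difference between the sides was not tested. Ppp5c, a serine/threonine phosphatase gene at place 44 on the lower side, gave 306.5 and 292.9 (WT), 332.7 and 299.1 (Dscr-1 null), 49.1 and 101.2 (ApoE null), and 137.4 and 99.8 (double null). The sides did not overlap and its difference was -1.58 (SE 0.29), but its other probe sets gave 0.02 and 0.36. Ercc2, a DNA repair helicase gene at place 16, gave 52.3 to 110.5 with ApoE and 19.4 to 27.5 without it, a difference of -1.31 (SE 0.26), and its other probe set 0.27. Without ApoE, Ercc2 exceeded the array's median on 0 of 4 arrays, so the size of -1.31 rests on signals near the background. Opa3, a mitochondrial protein gene at place 23, gave -0.83 (SE 0.27), and its 3 other probe sets 0.03, 0.36 and 0.38.

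**Figure D5:**
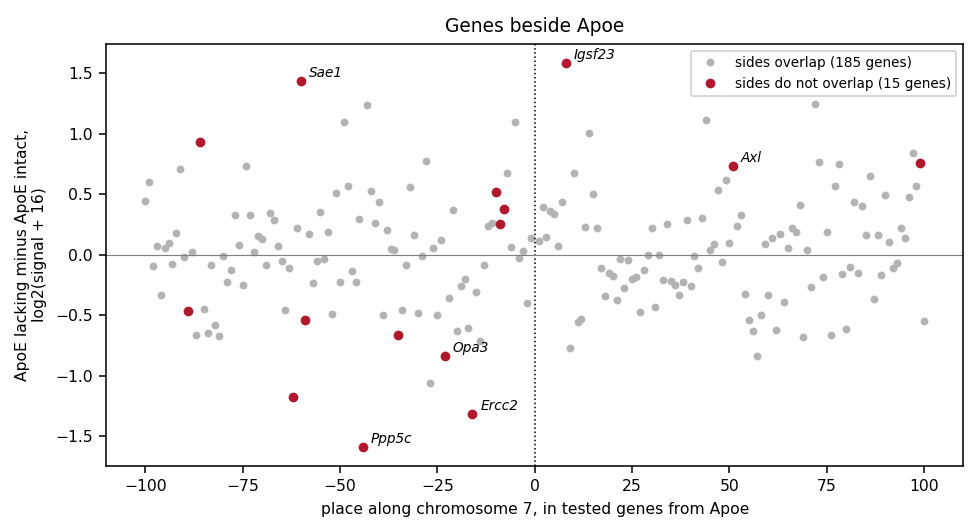
Difference between ApoE lacking and ApoE intact livers, on the log2(signal + 16) scale, of the 100 tested genes on each side of Apoe, plotted by place in gene order along chromosome 7, with Apoe at the dotted line and not drawn. Red points are the 15 genes whose sides do not overlap, with Ppp5c, Ercc2 and Opa3 lower and Sae1 and Igsf23 higher.

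On the side of higher coordinates Igsf23, an immunoglobulin superfamily gene at place 8, lay apart at 1.58 (SE 0.44), with its other probe sets at 0.70 and 0.71. On the lower side Sae1, a subunit of the SUMO-activating enzyme at place 60, gave 107.5 to 214.1 with ApoE and 302.9 to 576.8 without it, a difference of 1.43 (SE 0.32), and its 3 other probe sets gave 0.54, 0.76 and -0.05. Agreement among probe sets was also counted beyond this region. Of the 331 genes lying apart, higher, 160 had more than 1 kept probe set, and in 84 of them (52.5%) all went the same way. The share was 42.2% for genes lying apart, lower, and 40.8% for all genes tested. Among the 22 list members that lay apart, higher, and had several probe sets, all went the same way in 20.

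The remaining genes with the lowest p were dim. On the higher side Col6a4, Mirg, Nipal2 and Zfp979 lay apart at 1.41, 1.60, 1.41 and 1.46, but with ApoE they exceeded the array's median on 0, 1, 1 and 0 of 4 arrays. On the lower side Evc, Guca1a, Ermap, Apc2, Gm20642 and Ift172 lay apart at -1.14 to -1.66 together with Ints3 and Ptgds, and without ApoE they exceeded the median on at most 1 of 4 arrays. Ccdc13, at -1.67, gave 67.4 to 95.8 with ApoE and 6.2, 10.3, 60.7 and 6.3 without it. The sizes of such differences rest on signals near the background and are not read further. Of the calcineurin and NFAT genes, Nfatc1, Nfatc2 and Nfatc4 gave -0.32 (SE 0.30), 0.18 (SE 0.30) and 0.83 (SE 0.34), the sides overlapped, and the list of 13 had a median of 0.16.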

How the data were processed

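Liver RNA was hybridised to Affymetrix Mouse Genome 430 2.0 arrays, 1 per mouse. The authors derived the deposited intensity values, MAS5 signals, with GeneChip Operating Software 1.3 and scaled each array to an average of 100; their processing notes also name Transcriptome Analysis Console, without a version. MAS5 subtracts mismatch signal, so dim values are noisy. Aortic arrays, deposited on a log2 scale, were not used here.

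From these, log2(signal + 16) was taken. Of 45037 probe sets without controls, 34945 had 1 gene, 932 several and 9160 none in the platform annotation, and symbols were updated through Entrez IDs for 34741. A gene was read on its brightest probe set. Probe sets above the array's median on at least 2 of 8 arrays, 32005, were tested with limma 3.58.1 in R 4.3.3, with ApoE and Dscr-1 as terms (5 residual degrees of freedom) and Benjamini-Hochberg adjustment over all of them. For the arrays the methods name gene set enrichment, Gene Ontology and promoter motif analyses, and no test of single genes. The enrichment and ontology analyses were not run here. The paper's motif search used a longer upstream region and genes commonly upregulated in its own comparison, so the motif shares given here do not repeat it. The fit was tested on simulated data. Alternatives were the offset, scaling, filter, covariate, replicate block, variance model and leaving out each array.

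Named genes were Apoe, Rcan1, the 12 genes of lowest p in each direction whose sides do not overlap (only Apoe passed), up to 4 members of lowest p and the best known member of each of 40 lists, and genes the study ties to liver lipid metabolism. Other list members, Ang and the genes beside Apoe were named after their values were seen. The comparison and the lists were chosen with earlier results of these data known.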

Additional observations from a re-analysis of the deposited data

Results flagged for a closer look

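For each of 115 named genes the 4 arrays of each side were searched for 1 array that stood far from the other 3, by the gap to its nearest neighbour over the side's range. Of 230 sides 11 had such an array, and chance gives about 1 in 20.

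On the ApoE intact side, Dscr-1 null replicate 1 gave an Apoe signal of 21510.3 against 19937.4 to 20045.3 on the others, and an Hprt signal of 819.7 against 46.9 to 65.9. Dscr-1 null replicate 2 gave a Lgals3 signal of 95.1 against 131.2 to 138.9, and WT replicate 2 an Abcg1 signal of 96.0 against 163.3 to 170.5.

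On the ApoE lacking side, double null replicate 1 gave an Adgre1 signal of 163.4 against 193.6 to 197.5, a Psap signal of 2595.2 against 2179.2 to 2204.8 and a Ccdc13 signal of 60.7 against 6.2 to 10.3. Double null replicate 2 gave a Me1 signal of 547.7 against 1124.9 to 1201.0, a Guca1a signal of 19.8 against 3.3 to 5.4 and a Cyp2c39 signal of 40.0 against 5.1 to 8.7. ApoE null replicate 1 gave an Alb signal of 64005.7 against 32854.0 to 35041.6. The causes were not tested.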

How the results depend on the processing

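The count of genes past the adjusted threshold was 0 higher and 1 lower. It became 24 and 3 with an offset of 64, 86 and 35 with a variance trend and robust estimation (where the median prior degrees of freedom were infinite), and 11 and 2 above the 75th percentile on at least 4 arrays, a filter chosen after seeing the data that tests fewer genes. That filter can be met through the 4 arrays of 1 side alone, so it is not independent of the comparison. ApoE null against WT gave 1 higher gene, Ang (limma adjusted p = 0.00871). Leaving out each array gave 0 to 1 higher genes, the 1 being Hprt without Dscr-1 null replicate 1. The interaction count was 0, and 2 with an offset of 64. Genes whose sides do not overlap numbered 571, 325 above the 75th percentile, and 918 to 1364 with 1 array left out, also chosen after seeing the data, where fewer arrays make the criterion easier. With array medians set equal the median of all genes was -0.11 and these genes split 203 higher to 403 lower instead of 331 to 240.

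Of 115 named genes, 110 kept their sign in every setting. With 1 array left out at a time, Timd4 (-0.05) ranged from -0.42 to 0.31, Adgre1 (-0.06) from -0.24 to 0.15, Srebf2 (0.19) from -0.078 to 0.44, Nfatc2 (0.18) from -0.053 to 0.34 and Alb (0.24) from -0.0036 to 0.38. In double null against Dscr-1 null livers Timd4 was 0.28, Adgre1 0.012 and Alb -0.035, in ApoE null against WT livers Nfatc2 was -0.13, and after quantile normalization Alb was -0.037. The causes were not tested. Of 68 named genes that lay apart, 65 did so after quantile normalization, without Gbp2, Sqle and the cell cycle gene Mcm3, and 61 with array medians set equal, where Hexa, H2-Ab1, Cxcl9 and Acox2 were lost as well.

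With 1 array left out at a time the median kept its sign in 30 of 40 lists, and in 7 of those it also stayed within 1.5 times its value. These were the lists of macrophages, lipid-associated macrophages, MHC class II, lysosomal enzymes, chemokines, bile acids and the respiratory chain. Among the others were lipoprotein receptors and clearance (-0.06), which ranged from -0.17 to 0.08, fatty acid synthesis (-0.16), from -0.27 to 0.03, cholesterol synthesis (-0.02), from -0.18 to 0.19, cytokines (0.17), from 0.01 to 0.23, and MHC class I (0.09), from 0.04 to 0.21. The neutrophil median was 0.43, with a range of 0.18 to 0.59, and that of interferon response genes 0.26, with a range of 0.15 to 0.34.

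With the replicate number as a block the counts were 0 higher and 1 lower. Deviations of same-numbered arrays correlated at -0.0015 to 0.0293, so no sizeable deviation across genes went with the number. Such correlations cannot show whether same-numbered mice shared a litter.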
